A study of Homo sapiens with 9 samples.

Results

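Of 51796 gene identifiers in the count table, the 49 described here are the genes of the translation initiation factors, chosen by name. Their symbols begin with EIF and a digit between 1 and 6. Among 111 matching symbols, 54 that end in P with or without a number, 4 kinase genes named EIF2AK, 3 antisense names and 1 gene on chromosome Y were set aside. Read literally, that rule also set aside the eIF4E-binding proteins EIF4EBP1, EIF4EBP2 and EIF4EBP3, which are no pseudogenes and are described with the pathway further on. It kept EIF2B5-IT1, a transcript named after an intron of EIF2B5 and not a factor, for which no read was counted in any library. Initiation factors assemble a ribosome on an mRNA. eIF4 proteins bind the cap and unwind the mRNA, eIF2 brings the initiator tRNA, eIF3 holds the small ribosomal subunit to the mRNA, and eIF1, eIF1A, eIF5 and eIF5B choose the start codon and join the large subunit. In most cells these genes are expressed throughout life, and the phosphorylation of eIF2 and the release of eIF4E from its binding proteins are the best known switches of protein synthesis.

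The cells were A549, established from a lung adenocarcinoma and labelled epithelial. For 7 days they received GSK591 at 1 µM, which blocks PRMT5 and with it most symmetric dimethylation of arginine, or MS023 at 1 µM, which blocks type I PRMT enzymes and asymmetric dimethylation, or the solvent DMSO, and each group had 3 libraries of RNA freed of ribosomal RNA. Treated plates were seeded with 0.4 and control plates with 0.2 times 1e5 cells, so the seeded number changed together with treatment. The labels speak of RNA extracted in triplicate and do not state separate cultures, so p-values reflect only how far these libraries spread. Since the samples are bulk RNA, fewer cells of a type and less RNA per cell cannot be told apart.

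Total counts lay between 31398075 and 51244525 per library. All 7 epithelial markers were above 1 CPM in every group, while the leukocyte marker PTPRC, which defines white blood cells, was at or near 0. Only 2 of 7 leukocyte markers (CD14 and ITGB2) and 2 of 7 fibroblast and endothelial markers (COL1A1 and COL3A1) exceeded 1 CPM. The summed fibroblast and endothelial markers came to 8.98 to 10.6 CPM in GSK591, 27.4 to 30.5 CPM in MS023 and 14.4 to 17.1 CPM in DMSO; their part in the results was not tested. Residual mitochondrial rRNA, here per total count, was 927.5 CPM in GSK591 replicate 3 and between 0.401 and 20.1 CPM elsewhere. DMSO replicate 1 was the highest of the controls. Unless said otherwise, CPM stands for counts per 1e6 of library size after TMM scaling. It is given per library in the order of replicates 1, 2 and 3 or as mean ± SD over the 3 libraries. A change is the fitted log2 difference ± its standard error from edgeR's quasi-likelihood test over all 9 libraries, and a gene rose or fell where its p, adjusted over 18292 genes by Benjamini-Hochberg, was under 0.05.

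The initiation factors took up 1.08% ± 0.0169 of all counts in GSK591, 0.995% ± 0.0120 in MS023 and 1.09% ± 0.0208 in DMSO (SD, n = 3 libraries each). On the per-length scale of the authors' FPKM, averaged over the 9 libraries, the genes spread over more than 3 orders of magnitude, and a few carried much of the total. EIF4A1, the RNA helicase of the cap complex, averaged 529.7 FPKM. EIF5A, which relieves stalled ribosomes, averaged 525 FPKM, and EIF1, the gatekeeper of start codon choice, 489 FPKM. These neighbours in the order exchange places between groups, since EIF4A1 had 538 FPKM, EIF5A 447 FPKM and EIF1 368 FPKM in GSK591, against 589 FPKM, 597 FPKM and 579 FPKM in DMSO. EIF4G2 followed with 371 FPKM and EIF3K with 257 FPKM, and these first 5 genes held 44.4% of all FPKM of the set.

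**Figure D1:**
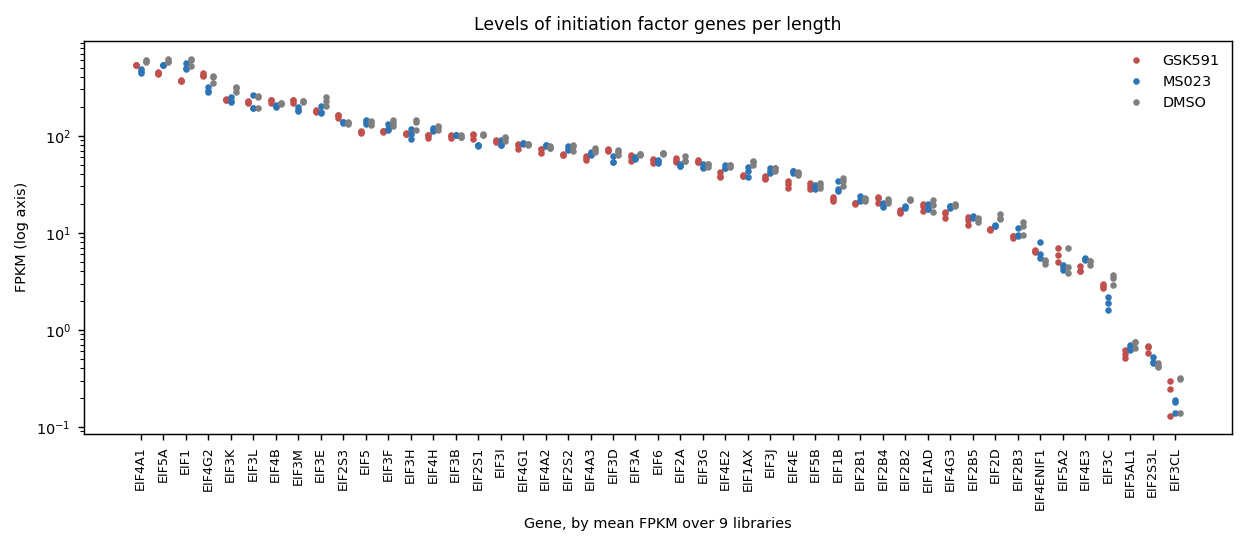
Level of each initiation factor gene per library on a log axis of FPKM, the authors' fragments scaled to length and depth, with genes ordered by their mean over the 9 libraries, and colours for GSK591, MS023 and DMSO. EIF4A1, EIF5A and EIF1 lead at 530, 525 and 489 FPKM, while EIF2S3L, EIF5AL1 and EIF3CL lie under 1 FPKM; EIF4E1B and EIF2B5-IT1, under 0.1 FPKM, are not drawn.

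Subunits of the same complex had unequal RNA levels. Leaving EIF3C and EIF3CL aside, the eIF3 subunits ranged between 42.0 FPKM for EIF3J and 256.8 FPKM for EIF3K, a ratio of 6.11. The 3 subunits of eIF2 lay within a ratio of 2.03, between 71.3 FPKM for EIF2S2 and 144 FPKM for EIF2S3, and the 5 subunits of eIF2B, its exchange factor, between 10.2 FPKM for EIF2B3 and 21.5 FPKM for EIF2B1. EIF4E1B, an eIF4E relative known from oocytes, gathered 1 count in GSK591, 2 counts in MS023 and 1 count in DMSO over the 3 libraries of each, and like EIF2B5-IT1 it was not tested.

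In GSK591 against DMSO, 10 of the 47 tested initiation factors rose and 22 fell, 21.3% and 46.8% of them. Of all genes tested, 62.6% were called in this comparison, 30.1% higher and 32.4% lower, so the members were called about as often as genes in general, and more of them on the lower side. In MS023 against DMSO, 1 member rose and 22 fell, 2.13% and 46.8%, where 51.0% of all genes were called, 25.1% higher and 25.9% lower. Between the inhibitors, MS023 was higher than GSK591 for 12 members and lower for 16, against a background of 65.4% of all genes called, 33.6% higher and 31.7% lower. The median change of the members was -0.07 in GSK591, -0.10 in MS023 and 0.01 between the inhibitors, while the median of all genes lay within 0.01 of 0 in each comparison. These medians of the members moved with the setting. In GSK591 the median was -0.01 with scaling by total counts, -0.03 with a filter of 1 CPM and -0.15 in the authors' FPKM, where the median of all genes was 0.07 with total counts and -0.10 in FPKM. In MS023 it was -0.06 with total counts, and between the inhibitors its sign turned, at -0.01 with total counts and -0.03 with the filter of 1 CPM. Without DMSO replicate 1 and GSK591 replicate 3, 9 members were higher and 20 lower in GSK591 than in DMSO. Groups did not overlap for 36, 27 and 37 of the 47 members in these 3 comparisons, where 65.6%, 57.5% and 70.5% of all genes did not.

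The changes were small. No member changed 2-fold in any comparison, and the median size of the called changes was 0.26 in GSK591, 0.21 in MS023 and 0.25 between the inhibitors on the log2 scale. Both comparisons with DMSO use the same 3 control libraries, so their calls are not independent of each other. In the authors' FPKM (limma on log2(FPKM + 1)) the median of all genes lay at -0.10 in GSK591 against DMSO and at 0.10 in MS023 against GSK591. There 2 members, not 10, were higher in GSK591 than in DMSO, and 34.0% of all called genes were higher, against 48.2% in counts. In MS023 against GSK591, 63.7% of all called genes were higher in FPKM, against 51.5% in counts.

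**Figure D2:**
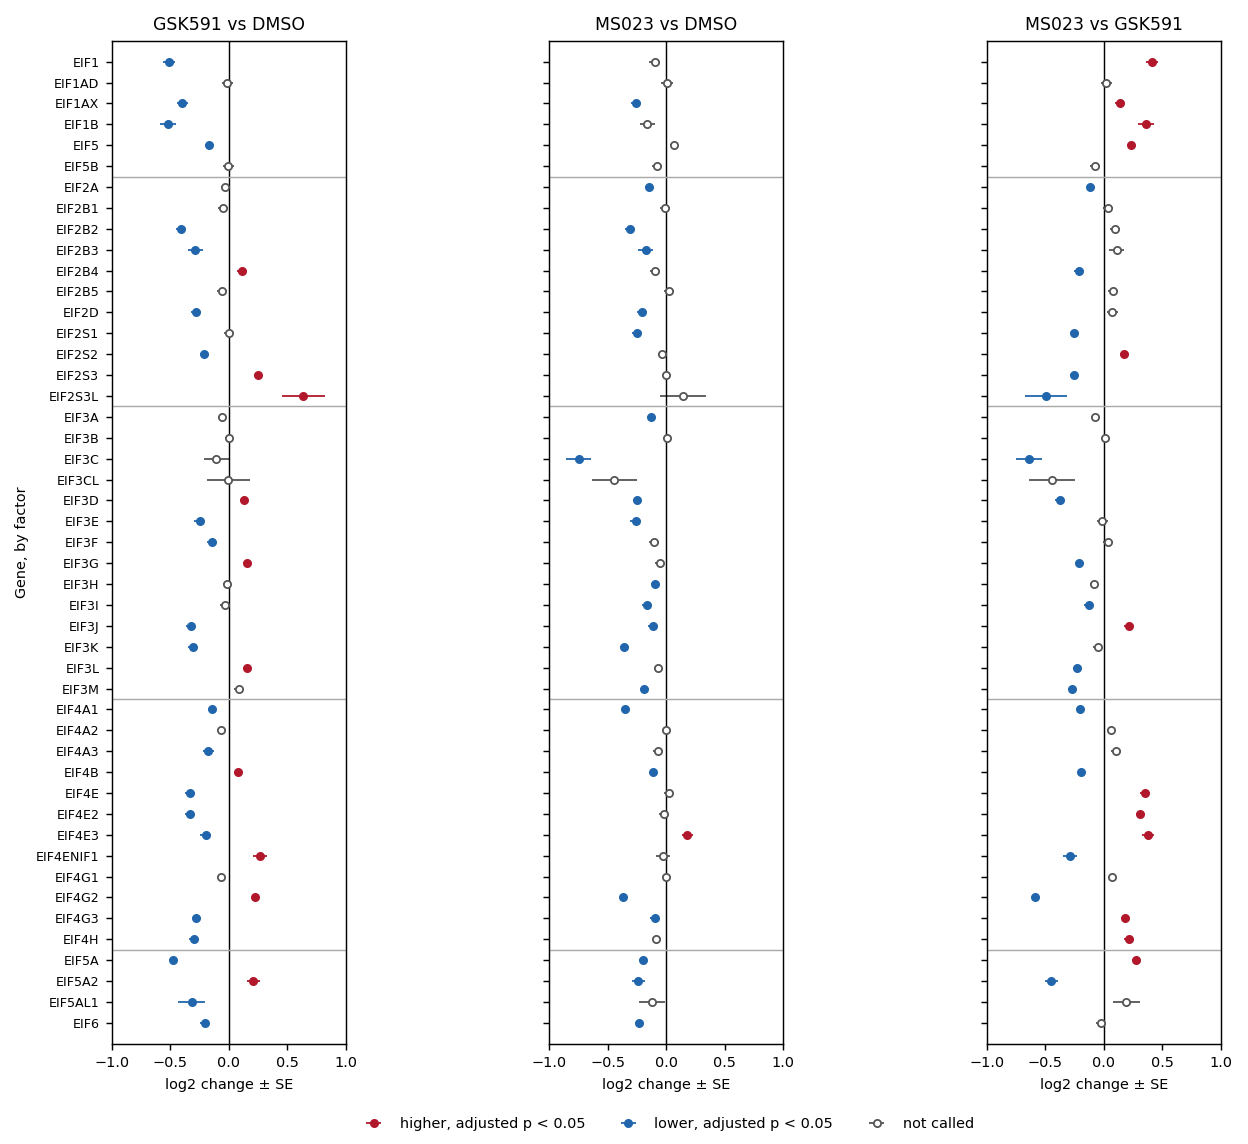
Log2 change ± standard error of 47 initiation factor genes in GSK591 against DMSO, MS023 against DMSO and MS023 against GSK591, from edgeR's fit to 9 libraries, with filled red points higher and filled blue points lower at an adjusted p under 0.05 and open points not called; grey lines part eIF1/1A/5, eIF2/2B, eIF3, eIF4 and eIF5A/6. Lower calls number 22 in each comparison with DMSO, while higher calls number 10 in GSK591 and 1 in MS023.

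The genes grouped under start codon choice and subunit joining include EIF1AD, which was counted in by name and not by that role. In GSK591 the group leaned to the lower side, where 4 of 6 fell and none rose, at a median of -0.29. In MS023 only EIF1AX fell and the median was -0.09. Called shares were 66.7% in GSK591 and 16.7% in MS023, against 62.6% and 51.0% of all genes. EIF1 (ENSG00000173812, hg19 chromosome 17, 39845137 to 39848920), which keeps the scanning ribosome from stopping at a poor start codon, had 375, 361 and 387 CPM in GSK591, 526, 480.1 and 487 CPM in MS023, and 499, 558 and 545 CPM in DMSO. The GSK591 libraries lay below the other 6, and the MS023 libraries overlapped with DMSO. EIF1 fell by 0.51 ± 0.05 in GSK591 (edgeR adjusted p = 3.34e-07), and its change of -0.10 ± 0.05 in MS023 did not pass (adjusted p = 0.0939), so that MS023 was higher than GSK591 by 0.41 ± 0.05 (adjusted p = 2.72e-06). Its close relative EIF1B had 22.0, 22.2 and 24.4 CPM in GSK591, 32.0, 27.0 and 28.8 CPM in MS023, and 30.6, 35.2 and 32.5 CPM in DMSO. EIF1B showed the same order of groups, with changes of -0.52 ± 0.07 in GSK591, -0.16 ± 0.07 in MS023 and 0.36 ± 0.07 between the inhibitors (adjusted p = 1e-05, 0.0552 and 0.000311), of which the change in MS023 did not pass. The ratio of EIF1 to EIF1B in FPKM was 16.5 ± 1.02 in GSK591, 17.4 ± 0.657 in MS023 and 17.2 ± 0.373 in DMSO, and the 3 groups overlapped.

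EIF1AX (X-linked, ENSG00000173674, hg19 chromosome X, 20142636 to 20159962), which works beside eIF1 on the scanning ribosome, had 180.1, 188 and 191 CPM in GSK591, 212, 198 and 206 CPM in MS023, and 236, 260.2 and 241 CPM in DMSO. Both inhibitor groups lay below DMSO. The changes were -0.40 ± 0.04 in GSK591 and -0.26 ± 0.04 in MS023 (edgeR adjusted p = 1.99e-06 and 0.000203). The difference of 0.14 ± 0.04 between the inhibitors (adjusted p = 0.0134) ended without GSK591 replicate 1 (0.0626) and without MS023 replicate 3 (0.0529). In all, 6 of 20 alternatives ended it, with 0.0562 under a filter of 1 CPM and 0.159 in FPKM (limma), or 0.274 without a filter there. EIF1AD, a nuclear protein with an eIF1A-like domain, showed no call, with 36.1 ± 1.35 CPM in GSK591, 36.6 ± 1.62 CPM in MS023 and 36.5 ± 1.56 CPM in DMSO. EIF5, the activator of GTP hydrolysis by eIF2, had 322, 327 and 331 CPM in GSK591, 385, 380.0 and 387 CPM in MS023, and 363, 373 and 369.5 CPM in DMSO. It was the lowest in GSK591, with -0.17 ± 0.03 against DMSO (edgeR adjusted p = 0.000421), and MS023 was higher than GSK591 by 0.23 ± 0.03 (adjusted p = 2.38e-05). EIF5B, the GTPase that joins the subunits, passed no test, with 211 ± 6.69 CPM in GSK591, 200.0 ± 8.99 CPM in MS023 and 211 ± 8.93 CPM in DMSO.

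These factors act on the surroundings of start codons, and their own start codons are shown for that reason. The windows below come from the GENCODE annotation of GRCh38, hold 9 bases before the start codon and the bases just after it, and carry the start codon in capitals. A purine at position -3 and a G at position 4, counted with the first base of the codon as 1, are the strong bases of the surrounding sequence.
EIF1: tcgtatcgtATGtccgct
EIF1B: tagtatcgcATGtccact
EIF5: taagccaaaATGtctgtc
EIF5A: cctcttaaaATGgcagat
EIF4E: cgatctaagATGgcgact
EIF4G2: gccgccaaaGTGgagagt
EIF1 and EIF1B, which fell the most in GSK591, have neither strong base. In all, 5 of the 48 members with a coding transcript and 7.1% of 18928 genes lack both. The others are EIF3B, called in no comparison, EIF4E1B, not tested, and EIF4E3, with -0.20 in GSK591 and 0.18 in MS023. A relation between start codon surroundings and changes was not tested. It is known as background that eIF1 limits its own synthesis through its poorly placed start codon. EIF5 has the purine alone. EIF5A, which fell by 0.48 in GSK591, and EIF4E have both, as 45.8% of the members and 42.5% of all genes do. EIF4G2 starts at GTG, a known case of a start other than ATG; it is the single such member, and 23 of the 18928 genes have such a start in the annotation. The codons begin at base 41689039 of chromosome 17 (plus strand), base 40309942 of chromosome 3 (plus strand), base 103335861 of chromosome 14 (plus strand), base 7309636 of chromosome 17 (plus strand), base 98929112 of chromosome 4 (minus strand) and base 10807295 of chromosome 11 (minus strand), all on GRCh38. Of the 48 members, 39.6% have an ATG upstream of the start codon in the annotated leader, against 53.3% of all genes. The counts measure RNA, and which start codons ribosomes used was not measured.

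Among the genes of eIF2, its exchange factor eIF2B and the eIF2-like proteins, 3 of 11 rose and 4 fell in GSK591, at a median of -0.05. In MS023 none rose and 5 fell, at a median of -0.10. Thus 63.6% and 45.5% of them were called, where 62.6% and 51.0% of all genes were. The 3 subunits of eIF2 itself did not move together. EIF2S1, the subunit whose phosphorylation shuts down initiation (ENSG00000134001, hg19 chromosome 14, 67826714 to 67853233), had 191, 192 and 189 CPM in GSK591, 167, 156 and 157 CPM in MS023, and 183, 199 and 189 CPM in DMSO. Here the MS023 libraries lay below the other 6. EIF2S1 fell by 0.25 ± 0.04 in MS023 (edgeR adjusted p = 0.000112), and in GSK591 it stood at 0.00 ± 0.04 against DMSO (adjusted p = 0.992). EIF2S2, the subunit that binds eIF5 and eIF2B, had 212, 213 and 223 CPM in GSK591, 249, 239 and 244 CPM in MS023, and 241, 259 and 251 CPM in DMSO, and it fell by 0.21 ± 0.04 in GSK591 (adjusted p = 0.000265) and did not pass in MS023 (-0.04 ± 0.04, adjusted p = 0.455). EIF2S3, the GTP- and tRNA-binding subunit (ENSG00000130741, hg19 chromosome X, 24072833 to 24096088), had 537, 542 and 528 CPM in GSK591, 445, 451 and 452 CPM in MS023, and 455, 452 and 445 CPM in DMSO. All GSK591 libraries lay above the others, with a rise of 0.25 ± 0.03 (adjusted p = 7.45e-06), while MS023 stood at -0.00 ± 0.03 (adjusted p = 0.924). The ratio of EIF2S3 to EIF2S1 in FPKM was 1.61 ± 0.0320 in GSK591, 1.72 ± 0.0314 in MS023 and 1.33 ± 0.0247 in DMSO, and no libraries of DMSO overlapped with those of an inhibitor.

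EIF2S3L, a copy of EIF2S3 on chromosome 12, had 0.994, 1.15 and 1.24 CPM in GSK591, 0.859, 0.781 and 0.776 CPM in MS023, and 0.719, 0.759 and 0.713 CPM in DMSO. It rose by 0.64 ± 0.19 in GSK591 (edgeR adjusted p = 0.00824) and did not pass in MS023 (0.14 ± 0.19, adjusted p = 0.572). Of its stretches of 100 bases, 18.4% also occur in EIF2S3, so that reads could be split between the copies and its values are uncertain; DESeq2 and the fit without DMSO replicate 1 and GSK591 replicate 3 gave adjusted p = 0.0696 and 0.0587. The lower level in MS023 than in GSK591 (-0.49 ± 0.18, adjusted p = 0.0269) ended without GSK591 replicate 2 (0.0579), GSK591 replicate 3 (0.0983), MS023 replicate 2 (0.0713) or MS023 replicate 3 (0.077), and in 7 of 18 alternatives in all, among them DESeq2 (0.17) and no low-count filter (0.104).

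Within eIF2B, which reloads eIF2 with GTP, EIF2B2 (the beta subunit, ENSG00000119718, hg19 chromosome 14, 75469614 to 75476292) had 25.3, 24.5 and 25.0 CPM in GSK591, 27.4, 26.6 and 25.8 CPM in MS023, and 31.8, 33.8 and 33.3 CPM in DMSO. It fell in both inhibitors, by 0.41 ± 0.04 in GSK591 and 0.31 ± 0.04 in MS023 (edgeR adjusted p = 1.17e-06 and 2.78e-05), and the inhibitors did not pass a test against each other (0.09 ± 0.04, adjusted p = 0.0686). EIF2B3, the gamma subunit, had 16.5 ± 0.386 CPM in GSK591, 17.8 ± 0.657 CPM in MS023 and 20.1 ± 1.78 CPM in DMSO; it fell by 0.29 ± 0.06 in GSK591 (adjusted p = 0.0011) and by 0.18 ± 0.06 in MS023 (adjusted p = 0.0279). The call in MS023 was lost with the removal of DMSO replicate 2 (0.218), GSK591 replicate 1 (0.0545), MS023 replicate 2 (0.0992) or MS023 replicate 3 (0.0809), each an adjusted p, and in 10 of 20 alternatives in all, among them total counts (0.0802), DESeq2 (0.0526) and FPKM (limma adjusted p = 0.22). EIF2B4, the delta subunit, stood at 42.3 ± 0.551 CPM in GSK591, 36.6 ± 1.04 CPM in MS023 and 39.2 ± 1.76 CPM in DMSO, a rise of 0.11 ± 0.04 in GSK591 (adjusted p = 0.0306) that was lost without DMSO replicate 2 (0.0683), DMSO replicate 3 (0.12) or GSK591 replicate 2 (0.0797). It was lost in 8 of 20 alternatives, DESeq2 (0.103), no low-count filter (0.0995) and FPKM included, and in FPKM the change was 0.05 (limma adjusted p = 0.551). MS023 was lower than GSK591 for EIF2B4 by a change of -0.21 ± 0.04 (adjusted p = 0.000433). EIF2B1 and EIF2B5, the alpha and the catalytic epsilon subunit, were called in no comparison, with changes against DMSO of -0.05 ± 0.04 and -0.06 ± 0.04 in GSK591 and -0.01 ± 0.04 and 0.02 ± 0.04 in MS023.

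EIF2D and EIF2A, proteins that can bring a tRNA to the ribosome without eIF2, were both lower in MS023. EIF2D (30.6 ± 0.884 CPM in GSK591, 32.2 ± 0.756 CPM in MS023 and 37.1 ± 1.42 CPM in DMSO) fell in both inhibitors, by 0.28 ± 0.04 in GSK591 and 0.21 ± 0.04 in MS023 (edgeR adjusted p = 5.13e-05 and 0.00104). EIF2A (119 ± 1.22 CPM in GSK591, 110.1 ± 2.92 CPM in MS023 and 122 ± 1.74 CPM in DMSO) fell in MS023 by 0.15 ± 0.03 (adjusted p = 0.0013) and did not pass in GSK591 (adjusted p = 0.344). Its lower level in MS023 than in GSK591 (-0.12 ± 0.03, adjusted p = 0.00624) did not pass without MS023 replicate 3 (0.0502) or with no low-count filter (0.0998).

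Of 14 eIF3 genes, 3 rose and 4 fell in GSK591, and none rose and 9 fell in MS023, at medians of -0.03 and -0.15. The called share was 50% in GSK591 and 64.3% in MS023, against 62.6% and 51.0% of all genes. EIF3K, a small subunit at the edge of the complex (ENSG00000178982, hg19 chromosome 19, 39109735 to 39127595), had 198, 189 and 197 CPM in GSK591, 194, 187 and 183 CPM in MS023, and 234, 249 and 242 CPM in DMSO. Every inhibitor library lay below every DMSO library, and the inhibitors overlapped. EIF3K fell by 0.31 ± 0.04 in GSK591 and 0.36 ± 0.04 in MS023 (edgeR adjusted p = 6.79e-06 and 2.5e-06). EIF3L, the partner that EIF3K binds, did not follow it, with 256, 249 and 259 CPM in GSK591, 220.5, 217 and 216 CPM in MS023, and 230.5, 232 and 226 CPM in DMSO. By counts EIF3L rose by 0.15 ± 0.03 in GSK591 (adjusted p = 0.00143), whereas the authors' FPKM had the opposite sign (-0.07, limma adjusted p = 0.668). MS023 was below GSK591 for EIF3L with a difference of -0.23 ± 0.03 in counts (edgeR adjusted p = 4.12e-05), which did not pass in FPKM (limma adjusted p = 0.766). Of its stretches of 100 bases, 33.2% occur in other annotated genes.

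EIF3D, which can bind the cap of selected mRNAs (ENSG00000100353, hg19 chromosome 22, 36906897 to 36925483), had 149, 148 and 155 CPM in GSK591, 117, 116 and 114 CPM in MS023, and 138, 142 and 134 CPM in DMSO. The GSK591 libraries lay above DMSO and the MS023 libraries below it. EIF3D rose by 0.13 ± 0.04 in GSK591 (edgeR adjusted p = 0.00521) and fell by 0.25 ± 0.04 in MS023 (adjusted p = 3.92e-05), and MS023 stood below GSK591 with a difference of -0.38 ± 0.04 (adjusted p = 2.4e-07). In FPKM the rise in GSK591 did not pass (limma adjusted p = 0.403). EIF3E, a subunit that binds EIF3D and lies on chromosome 8, had 339 ± 6.91 CPM in GSK591, 335 ± 13.2 CPM in MS023 and 402 ± 23.9 CPM in DMSO. It fell in both, by 0.25 ± 0.05 in GSK591 and 0.26 ± 0.05 in MS023 (edgeR adjusted p = 0.000267 and 0.000246). EIF3J, a loosely held subunit at the decoding site, had 78.4, 78.8 and 81.1 CPM in GSK591, 94.5, 88.3 and 93.7 CPM in MS023, and 94.1, 105 and 99.8 CPM in DMSO. It was the lowest in GSK591, with -0.33 ± 0.04 against DMSO (adjusted p = 7.37e-06) and MS023 above GSK591 by 0.21 ± 0.04 (adjusted p = 0.000368).

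EIF3G, an RNA-binding subunit, had 65.1 ± 2.61 CPM in GSK591, 56.2 ± 1.05 CPM in MS023 and 58.5 ± 0.399 CPM in DMSO; it rose by 0.16 ± 0.04 in GSK591 (edgeR adjusted p = 0.00232), which did not pass in FPKM (limma adjusted p = 0.0664), and MS023 was below GSK591 with a difference of -0.21 ± 0.04 (adjusted p = 0.000167). EIF3M, a subunit of the core, had 192, 191 and 199 CPM in GSK591, 166, 158 and 156 CPM in MS023, and 181, 185 and 182 CPM in DMSO. Its MS023 libraries lay below all others, with -0.19 ± 0.04 against DMSO (adjusted p = 0.000529) and -0.27 ± 0.04 against GSK591 (adjusted p = 1e-05). EIF3A, EIF3I and EIF3H, structural subunits of the complex, fell in MS023 by 0.13 ± 0.03, 0.17 ± 0.04 and 0.10 ± 0.03 (edgeR adjusted p = 0.00379, 0.00367 and 0.0268) and showed no call in GSK591 (-0.06 ± 0.03, -0.04 ± 0.04 and -0.02 ± 0.03). The fall of EIF3A did not pass in FPKM (limma adjusted p = 0.0863) or with total counts (edgeR adjusted p = 0.0528). EIF3F fell in GSK591 by 0.14 ± 0.04 (adjusted p = 0.00881), a call that was lost without DMSO replicate 2 (0.0662) and with scaling by total counts (0.108). EIF3B, the scaffold of the complex, was called in no comparison and had 312 ± 7.48 CPM in GSK591, 313 ± 4.27 CPM in MS023 and 312 ± 3.93 CPM in DMSO.

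Some eIF3 calls in MS023 did not outlast the removal of single libraries. EIF3J fell by 0.11 ± 0.04 (edgeR adjusted p = 0.0328), and its adjusted p reached 0.279 without DMSO replicate 2, 0.0785 without DMSO replicate 3, 0.0765 without GSK591 replicate 1, 0.078 without GSK591 replicate 3, 0.179 without MS023 replicate 2 and 0.0613 without MS023 replicate 3. EIF3H lost its call without DMSO replicate 1 (0.107), DMSO replicate 2 (0.145), GSK591 replicate 1 (0.0623), GSK591 replicate 3 (0.0628), MS023 replicate 2 (0.0924) or MS023 replicate 3 (0.115). Over all alternatives, the call was lost in 13 of 20 for EIF3J and 11 of 20 for EIF3H, with 0.157 and 0.188 under total counts. Between the inhibitors, the lower EIF3I of MS023 (-0.13 ± 0.04, adjusted p = 0.0121) was lost without MS023 replicate 2 (0.0619) or MS023 replicate 3 (0.0513) and in FPKM (limma adjusted p = 0.189).

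EIF3C, a large core subunit, and EIF3CL, its near copy on chromosome 16, have uncertain values. Of their stretches of 100 bases, 95.1% of EIF3C and 97.1% of EIF3CL occur in the other gene. EIF3C had 11.8, 11.8 and 10.6 CPM in GSK591, 8.20, 7.60 and 5.97 CPM in MS023, and 10.5, 12.8 and 13.3 CPM in DMSO. Per length it averaged 2.69 FPKM, while no eIF3 subunit other than EIF3CL lay under the 42.0 FPKM of EIF3J. With that limit, its fall of 0.75 ± 0.11 in MS023 was the largest of any member in that comparison (edgeR adjusted p = 4.82e-05), and EIF3CL, at 2.18 ± 0.325 CPM in GSK591, 1.59 ± 0.421 CPM in MS023 and 2.15 ± 0.316 CPM in DMSO, stood at -0.45 ± 0.19 and did not pass (adjusted p = 0.0657).

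**Figure D3:**
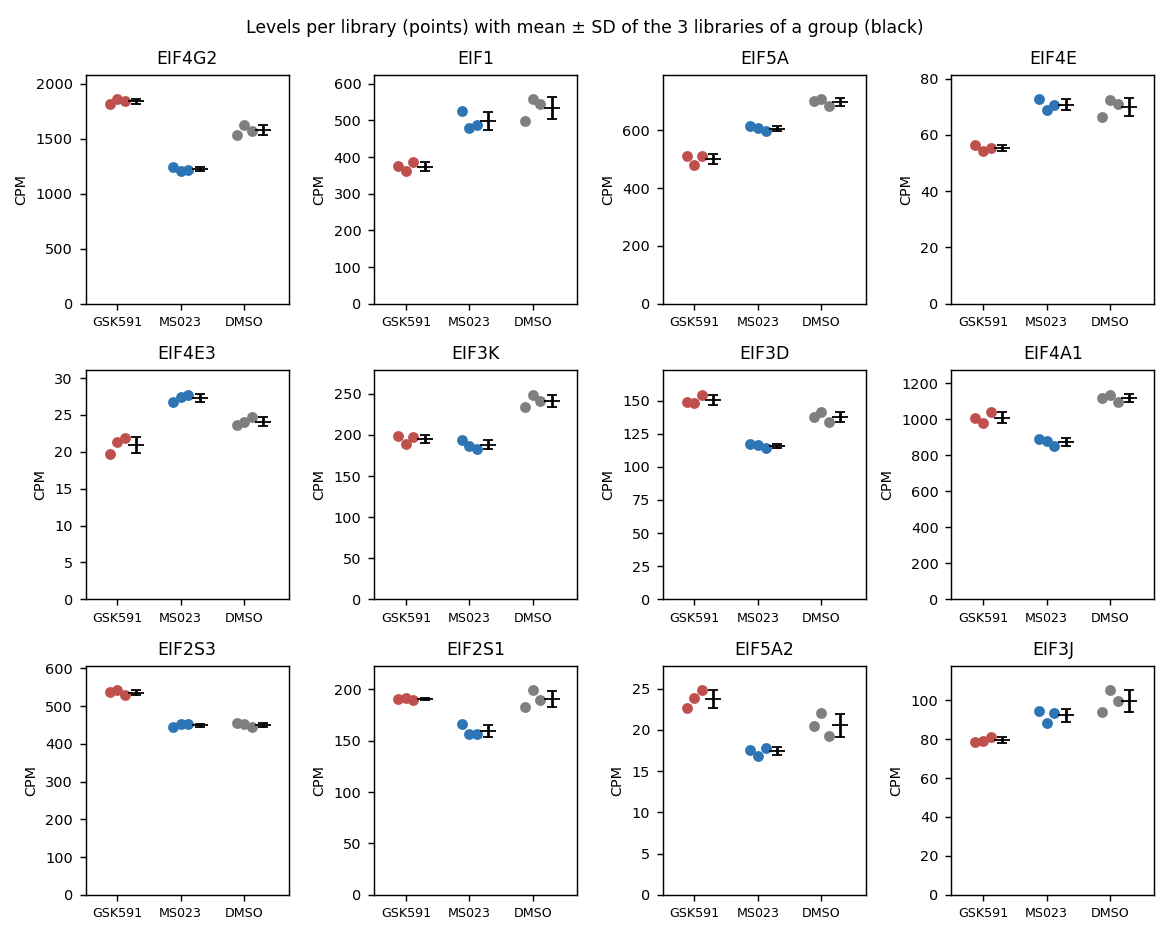
CPM per library (points; red GSK591, blue MS023, grey DMSO) with mean ± SD of the 3 libraries of each group (black) for 12 initiation factor genes, on axes that start at 0. EIF4G2 averages 1839 CPM in GSK591, 1222 CPM in MS023 and 1578 CPM in DMSO without overlap, EIF1 and EIF4E are low in GSK591 alone, and EIF3K is low in both inhibitor groups.

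Members of the cap-binding and helicase group differed between the inhibitors in both directions. In GSK591, 3 of its 12 tested genes rose and 7 fell, at a median of -0.16. In MS023, 1 rose and 4 fell, at a median of -0.05, and 5 were higher and 4 lower in MS023 than in GSK591. Of the 12, 83.3%, 41.7% and 75% were called in these comparisons, against 62.6%, 51.0% and 65.4% of all genes. EIF4G2, also called DAP5, is an eIF4G relative that lacks the binding site for eIF4E (ENSG00000110321, hg19 chromosome 11, 10818597 to 10830657). It had 1812, 1860.5 and 1846 CPM in GSK591, 1244, 1209 and 1214 CPM in MS023, and 1536, 1624 and 1574 CPM in DMSO. The 3 groups did not overlap, with GSK591 the highest and MS023 the lowest. EIF4G2 rose by 0.22 ± 0.02 in GSK591 and fell by 0.37 ± 0.02 in MS023 (edgeR adjusted p = 1.85e-06 and 1.67e-08), and MS023 was below GSK591 with a difference of -0.59 ± 0.02 (adjusted p = 2.98e-11). In FPKM the rise in GSK591 did not pass (limma adjusted p = 0.108), and the lower level in MS023 than in GSK591 did (0.000122).

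EIF4G1, the main scaffold of the cap complex, had 477, 456 and 450.0 CPM in GSK591, 479, 485 and 486 CPM in MS023, and 489.6, 478 and 485 CPM in DMSO and was called in no comparison. Its ratio to EIF4G2 thus moved with EIF4G2, and EIF4G2 over EIF4G1 in FPKM was 5.47 ± 0.279 in GSK591, 3.56 ± 0.221 in MS023 and 4.72 ± 0.333 in DMSO. EIF4G3, a less abundant scaffold, had 101 ± 4.16 CPM in GSK591, 115 ± 2.94 CPM in MS023 and 123 ± 2.72 CPM in DMSO. It fell by 0.28 ± 0.04 in GSK591 (edgeR adjusted p = 1.3e-05), and MS023 was above GSK591 by 0.18 ± 0.04 (adjusted p = 0.000652). Its change of -0.10 ± 0.04 in MS023 against DMSO (adjusted p = 0.0387) kept its call only without GSK591 replicate 2 or MS023 replicate 1 among the 9 fits that left out a library; the adjusted p was 0.0951, 0.227 and 0.0542 without DMSO replicates 1, 2 and 3, 0.0914 and 0.0665 without GSK591 replicates 1 and 3, and 0.161 and 0.154 without MS023 replicates 2 and 3. It was lost in 15 of 20 alternatives in all, with 0.266 under total counts and 0.46 in FPKM (limma).

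The cap-binding proteins were low in GSK591. EIF4E, the main cap-binding protein (ENSG00000151247, hg19 chromosome 4, 99792835 to 99851788), had 56.4, 54.3 and 55.5 CPM in GSK591, 72.7, 68.8 and 70.6 CPM in MS023, and 66.3, 72.4 and 70.8 CPM in DMSO. GSK591 lay below the other 6 libraries, and MS023 overlapped with DMSO. EIF4E fell by 0.33 ± 0.04 in GSK591 (edgeR adjusted p = 4.65e-06) and stood at 0.02 ± 0.04 in MS023 (adjusted p = 0.74), with MS023 above GSK591 by 0.35 ± 0.04 (adjusted p = 2.21e-06). EIF4E2, also called 4EHP, which binds caps without eIF4G and mostly represses, had 71.4, 71.4 and 71.3 CPM in GSK591, 92.0, 88.4 and 85.4 CPM in MS023, and 86.7, 93.4 and 89.9 CPM in DMSO. Its changes were close in size to those of EIF4E, with -0.33 ± 0.04 in GSK591, -0.02 ± 0.04 in MS023 and 0.31 ± 0.04 between the inhibitors (adjusted p = 2.02e-06, 0.64 and 3.45e-06). EIF4E3, the third cap-binding relative, had 19.8, 21.3 and 21.9 CPM in GSK591, 26.8, 27.4 and 27.8 CPM in MS023, and 23.6, 24.0 and 24.7 CPM in DMSO. It was lowest in GSK591 and highest in MS023 with no overlap, at -0.20 ± 0.05 and 0.18 ± 0.05 against DMSO (adjusted p = 0.00224 and 0.00561), and MS023 was above GSK591 by 0.38 ± 0.05 (adjusted p = 5.84e-06). EIF4E3 was the only member that rose in MS023, and in FPKM that rise did not pass (limma adjusted p = 0.248).

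EIF4ENIF1, the protein that carries eIF4E into the nucleus and to processing bodies, moved the other way in GSK591. It had 21.2, 19.7 and 20.5 CPM in GSK591, 17.0, 15.5 and 17.6 CPM in MS023, and 16.7, 18.0 and 16.4 CPM in DMSO, a rise of 0.26 ± 0.06 in GSK591 (edgeR adjusted p = 0.00148) and a level in MS023 below that in GSK591 with a difference of -0.29 ± 0.06 (adjusted p = 0.000561). That difference between the inhibitors did not pass in FPKM (limma adjusted p = 0.905). There EIF4ENIF1 had 6.48 ± 0.170 FPKM in GSK591, 6.47 ± 1.30 FPKM in MS023 and 5.00 ± 0.245 FPKM in DMSO. In FPKM the libraries of both inhibitors lay above those of DMSO.

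EIF4A1, the main helicase (ENSG00000161960, hg19 chromosome 17, 7476024 to 7482323), had 1007, 981 and 1039 CPM in GSK591, 893, 878 and 851 CPM in MS023, and 1119.9, 1137 and 1094 CPM in DMSO. The groups did not overlap, and MS023 was lowest. EIF4A1 fell by 0.15 ± 0.03 in GSK591 and 0.35 ± 0.03 in MS023 (edgeR adjusted p = 0.000621 and 2.13e-07); the fall in GSK591 did not pass in FPKM (limma adjusted p = 0.0515). Every stretch of 100 bases of EIF4A1 also occurs in another annotated gene, most of them in SENP3-EIF4A1, so its reads could be shared out or dropped. EIF4A2, its close paralog, had 148, 153 and 149.9 CPM in GSK591, 155, 160.0 and 155 CPM in MS023, and 162, 152 and 158 CPM in DMSO and was called in no comparison. The ratio of EIF4A1 to EIF4A2 in FPKM was 7.64 ± 0.412 in GSK591, 5.85 ± 0.218 in MS023 and 7.68 ± 0.299 in DMSO, and the MS023 libraries lay below all others. EIF4A3, a helicase of the exon junction complex, had 129 ± 5.46 CPM in GSK591, 139 ± 5.87 CPM in MS023 and 146 ± 6.88 CPM in DMSO and fell by 0.18 ± 0.05 in GSK591 (adjusted p = 0.00375), a call lost in the fit without DMSO replicate 1 and GSK591 replicate 3 (0.126) and with scaling by total counts (0.0529).

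The helper proteins of the helicase parted. EIF4H (279.7 ± 3.19 CPM in GSK591, 324 ± 10.6 CPM in MS023 and 345 ± 8.15 CPM in DMSO) fell by 0.30 ± 0.04 in GSK591 (edgeR adjusted p = 6.41e-06) and stood at -0.09 ± 0.04 in MS023 (adjusted p = 0.0649), with MS023 above GSK591 by 0.21 ± 0.04 (adjusted p = 0.000159). EIF4B (ENSG00000063046, hg19 chromosome 12, 53399942 to 53435993) had 903, 909 and 895 CPM in GSK591, 788, 795 and 779.6 CPM in MS023, and 868, 859 and 833 CPM in DMSO. GSK591 was highest and MS023 lowest, without overlap. EIF4B rose by 0.08 ± 0.03 in GSK591 (adjusted p = 0.0194), the smallest change called there, which was lost without DMSO replicate 3 (0.117) or GSK591 replicate 2 (0.0559) and with no low-count filter (0.0789). It fell by 0.12 ± 0.03 in MS023 (adjusted p = 0.00262), and MS023 lay below GSK591 with a difference of -0.20 ± 0.03 (adjusted p = 1.66e-05). In FPKM only that difference between the inhibitors passed, with limma adjusted p = 0.0114, against 0.153 in GSK591 and 0.18 in MS023.

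Of the 4 genes of eIF5A and eIF6, 1 rose and 3 fell in GSK591 and 3 fell in MS023, at medians of -0.26 and -0.22. Called were thus 100% and 75% of these few genes, where 62.6% and 51.0% of all genes were. EIF5A (ENSG00000132507, hg19 chromosome 17, 7210318 to 7215774), the carrier of the amino acid hypusine, had 511, 481 and 509.9 CPM in GSK591, 614, 608 and 597 CPM in MS023, and 701, 709 and 683 CPM in DMSO. The 3 groups did not overlap, with GSK591 lowest. EIF5A fell by 0.48 ± 0.03 in GSK591 and 0.20 ± 0.03 in MS023 (edgeR adjusted p = 1.57e-08 and 0.000172), and MS023 was above GSK591 by 0.28 ± 0.03 (adjusted p = 4.32e-06). Its paralog EIF5A2, often amplified in cancers, had 22.6, 23.8 and 24.8 CPM in GSK591, 17.6, 16.9 and 17.8 CPM in MS023, and 20.4, 22.0 and 19.3 CPM in DMSO. EIF5A2 moved against EIF5A in GSK591, with a rise of 0.21 ± 0.06, and fell by 0.24 ± 0.06 in MS023 (adjusted p = 0.00512 and 0.003), with MS023 below GSK591 with a difference of -0.45 ± 0.06 (adjusted p = 6.65e-06). None of the 3 calls of EIF5A2 passed in FPKM (limma adjusted p = 0.263, 0.534 and 0.0822). In FPKM, EIF5A over EIF5A2 was 76.3 ± 12.9 in GSK591, 121 ± 6.67 in MS023 and 124 ± 31.3 in DMSO.

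EIF5AL1, an intronless copy of EIF5A, had 2.58 ± 0.157 CPM in GSK591, 2.94 ± 0.150 CPM in MS023 and 3.20 ± 0.229 CPM in DMSO, and 7.8% of its 100-base stretches occur in other genes. It fell by 0.32 ± 0.12 in GSK591 (edgeR adjusted p = 0.026), and the call was lost without DMSO replicate 2 (0.0944), DMSO replicate 3 (0.0617), GSK591 replicate 1 (0.0663) or GSK591 replicate 3 (0.113), and in 10 of 18 alternatives in all, among them DESeq2 (0.105) and total counts (0.0741). EIF6, which keeps the large subunit apart from the small one, had 61.5, 57.8 and 58.1 CPM in GSK591, 58.4, 58.2 and 57.4 CPM in MS023, and 69.1, 69.0 and 66.7 CPM in DMSO. It fell in both, by 0.21 ± 0.04 in GSK591 and 0.23 ± 0.04 in MS023 (adjusted p = 0.000182 and 9.31e-05), and the inhibitors overlapped.

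**Figure D4:**
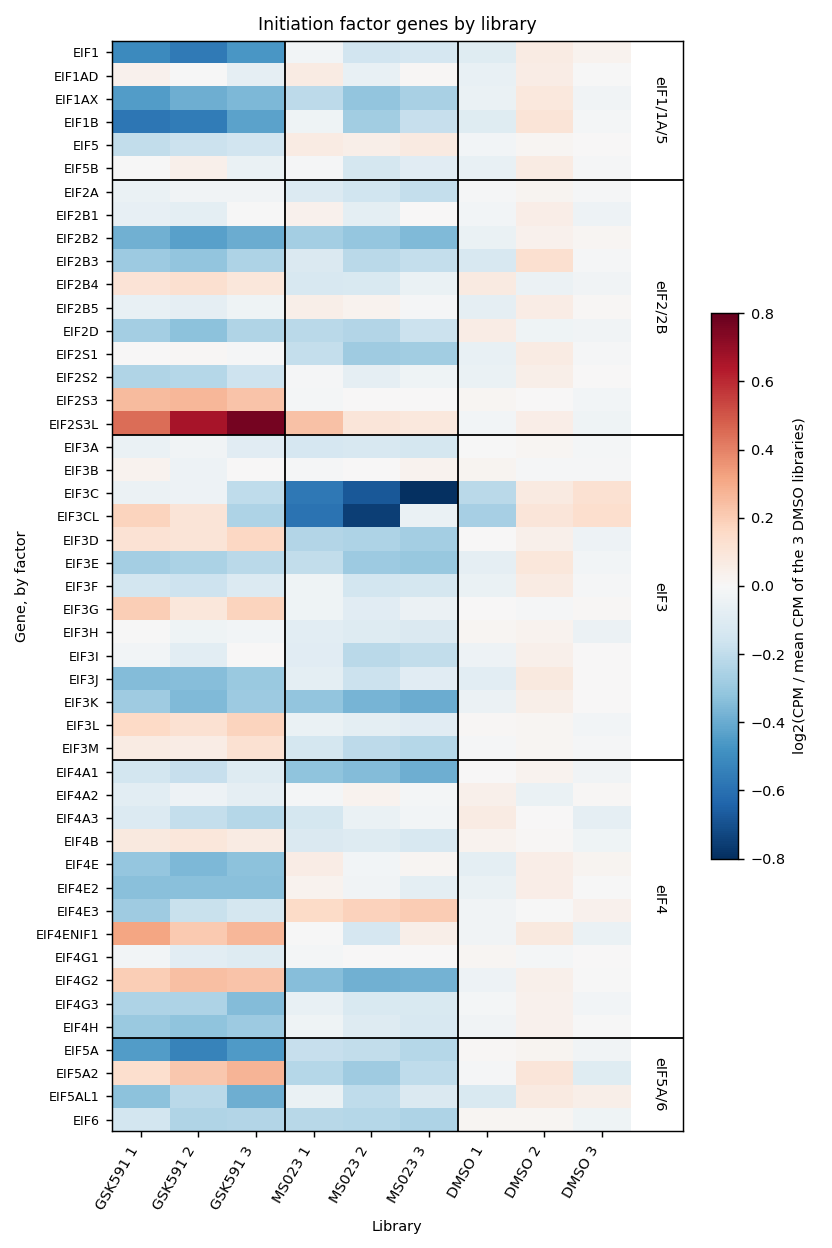
Level of 47 initiation factor genes in each of the 9 libraries as log2 of CPM over the mean CPM of the 3 DMSO libraries, red for higher and blue for lower, with libraries along the x axis in the order GSK591, MS023 and DMSO and genes by factor. EIF1, EIF1B, EIF1AX and EIF5A are among the darkest blue in the GSK591 libraries, and EIF4G2, EIF3D, EIF4B and EIF5A2 are red in GSK591 and blue in MS023.

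Taking the members by their 2 calls against the shared DMSO libraries, EIF4G2, EIF3D, EIF4B and EIF5A2 were higher in GSK591 and lower in MS023, and EIF4E3 was lower in GSK591 and higher in MS023. All 5 also differed between the inhibitors directly, as given above. In the authors' FPKM none of these 5 held both calls. The rises did not pass there, with limma adjusted p = 0.108, 0.403, 0.153 and 0.263 for EIF4G2, EIF3D, EIF4B and EIF5A2 in GSK591 and 0.248 for EIF4E3 in MS023, nor did the falls of EIF4B and EIF5A2 in MS023 (0.18 and 0.534).

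Many mRNAs of the translation apparatus begin with a C and a run of pyrimidines, the element through which mTOR and LARP1 are known to control their translation, so the starts of these genes were read from RefSeq promoters (GRCh38.p14). Of the 49 members, 41 were found there. The 8 without a promoter were EIF2B5-IT1, EIF2S2, EIF3A, EIF3CL, EIF3E, EIF3G, EIF3H and EIF3L, so many eIF3 genes are missing from the counts below. An annotated start at C with at least 4 further C or T bases was present in 10 of the 41 (24.4%), against 4.0% of 27305 promoters. Each sequence below holds 20 bases before the annotated start and 20 from it on, with the C and its run of pyrimidines in capitals; the first 6 have such a start, and EIF4G2, EIF1 and EIF5A are shown as members without it.
EIF2S3: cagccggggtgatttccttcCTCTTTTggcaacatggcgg
EIF3D: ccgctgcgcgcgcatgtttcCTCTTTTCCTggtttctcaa
EIF4B: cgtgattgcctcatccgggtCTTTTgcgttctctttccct
EIF3K: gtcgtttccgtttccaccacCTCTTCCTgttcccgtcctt
EIF3F: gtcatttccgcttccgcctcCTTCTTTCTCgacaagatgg
EIF4A2: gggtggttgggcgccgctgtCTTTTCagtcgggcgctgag
EIF4G2: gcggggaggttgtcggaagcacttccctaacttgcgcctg
EIF1: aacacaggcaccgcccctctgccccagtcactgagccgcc
EIF5A: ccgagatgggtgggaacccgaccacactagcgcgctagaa
The windows lie at chrX:24054936-24054975 (plus strand, EIF2S3), chr22:36529147-36529186 (minus strand, EIF3D), chr12:53006436-53006475 (plus strand, EIF4B), chr19:38619168-38619207 (plus strand, EIF3K), chr11:7987317-7987356 (plus strand, EIF3F), chr3:186783557-186783596 (plus strand, EIF4A2), chr11:10807977-10808016 (minus strand, EIF4G2), chr17:41688865-41688904 (plus strand, EIF1) and chr17:7306979-7307018 (plus strand, EIF5A). The other 4 with a pyrimidine start were EIF2A, EIF2D, EIF3M and the EIF2S3 copy EIF2S3L, listed in RefSeq as EIF2S3B. Of these 10, 4 rose and 3 fell in GSK591, at a median of 0.02, and none rose and 6 fell in MS023, at a median of -0.13. Between the inhibitors, 6 of the 10 were lower in MS023 and none higher, at a median of -0.16. Of the 30 tested members with another start, 4 rose and 17 fell in GSK591 (median -0.17), 1 rose and 13 fell in MS023 (median -0.10), and 11 were higher and 8 lower in MS023 than in GSK591 (median 0.09). Of all genes, 30.1% rose and 32.4% fell in GSK591, and 25.1% and 25.9% in MS023. MS023 was higher than GSK591 for 33.6% of all genes and lower for 31.7%. The 4 with a pyrimidine start that rose in GSK591 were EIF2S3, its copy EIF2S3L, EIF3D and EIF4B, the last 3 with the limits given above. A relation between the kind of start and the changes was not tested. The start used in A549 is not given by these files and need not be the annotated one.

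Other motifs were searched on both strands of the 300-base promoters. The E-box CACGTG, read by MYC and related factors, occurred in 24.4% of the members' promoters and 7.4% of all. The letters CCGGAAG, of the ETS family, occurred in 24.4% and 10.7%, and the palindrome of NRF1 in 19.5% and 6.3%. GGGCGG, of the SP and KLF families, was held by 68.3% and 44.6%, CCAAT by 39.0% and 35.7%, and TATAAA by 2.4% and 12.0%. The promoters of the members had a median GC content of 64.3%, against 58.3% for all, and the shares were not adjusted for it. These matches describe letters in a window and not bound sites, and of the motifs only the last was rarer in the members than in all promoters. Of 10 tested members with the E-box, 2 rose and 7 fell in GSK591, against 6 and 13 of 30 without it. In MS023 none rose and 4 fell, against 1 and 15. For the ETS letters these counts were 2 and 3 of 10 against 6 and 17 of 30 in GSK591. In MS023 they were 0 and 6 against 1 and 13. For the NRF1 letters they were 0 and 5 of 8 against 8 and 15 of 32 in GSK591. MS023 had 0 and 5 against 1 and 14. Shares of all genes are given above. A relation between these motifs and the changes was not tested.

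Genes that act on initiation factors or work beside them were called at shares to be read against those of all genes, 62.6% in GSK591, 51.0% in MS023 and 65.4% between the inhibitors. In GSK591, 88.9% of the eIF2 kinase list, 66.7% of the mTOR arm, 73.7% of the initiation partners and 61.5% of the elongation and termination factors were called, and in MS023 the shares were 44.4%, 60%, 73.7% and 69.2% in the same order. Between the inhibitors, 86.7% of the mTOR arm, 68.4% of the partners and 76.9% of the elongation and termination factors were called. The alternatives were followed gene by gene for the members only, so how calls of these listed genes hold under them was not checked. Of 2 tested eIF4E-binding proteins, EIF4EBP1, which holds eIF4E until mTOR phosphorylates it, had 29.7 ± 2.56 CPM in GSK591, 35.4 ± 0.469 CPM in MS023 and 42.1 ± 1.28 CPM in DMSO. It fell by 0.50 ± 0.05 in GSK591 and 0.25 ± 0.05 in MS023 (edgeR adjusted p = 1.15e-06 and 0.00117). EIF4EBP2 had 144 ± 1.26 CPM in GSK591, 131 ± 2.0 CPM in MS023 and 132 ± 0.371 CPM in DMSO and rose in GSK591 by 0.12 ± 0.03 (adjusted p = 0.00344). Between the inhibitors, EIF4EBP1 was higher by 0.25 ± 0.05 and EIF4EBP2 lower by a change of -0.14 ± 0.03 in MS023 (adjusted p = 0.000694 and 0.00123). In GSK591, EIF4E and its binding protein EIF4EBP1 were thus both lower and EIF4EBP2 was higher than in DMSO. EIF4EBP3 was not tested, with means of 0.123 CPM in GSK591, 0.189 CPM in MS023 and 0.152 CPM in DMSO.

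Among 9 genes of the eIF2 kinases, their helpers and the eIF2 phosphatase, 5 rose and 3 fell in GSK591, and 1 rose and 3 fell in MS023, at medians of 0.17 and -0.02. All 9 differed between the inhibitors, with 3 higher and 6 lower in MS023. The 4 kinases each sense another stress, and in GSK591 they split evenly by counts. EIF2AK1 (heme and mitochondrial stress) had 188, 185 and 187 CPM in GSK591, 271, 263 and 259 CPM in MS023, and 246, 254 and 251 CPM in DMSO, and it fell by 0.42 ± 0.04 in GSK591 (edgeR adjusted p = 8.69e-08). EIF2AK3 (stress of the endoplasmic reticulum) had 23.7 ± 0.528 CPM in GSK591, 31.2 ± 1.83 CPM in MS023 and 30.6 ± 0.633 CPM in DMSO and fell by 0.37 ± 0.05 (adjusted p = 1.06e-05). EIF2AK4 (amino acid shortage) had 103, 104 and 99.1 CPM in GSK591, 84.5, 80.6 and 83.1 CPM in MS023, and 76.0, 78.1 and 76.5 CPM in DMSO and rose by 0.41 ± 0.03 in GSK591 and 0.11 ± 0.03 in MS023 (adjusted p = 6.78e-08 and 0.0142). EIF2AK2 (double-stranded RNA) had 243 ± 5.07 CPM in GSK591, 178 ± 1.96 CPM in MS023 and 216 ± 6.97 CPM in DMSO, a rise of 0.17 ± 0.04 in GSK591 and a fall of 0.28 ± 0.04 in MS023 (adjusted p = 0.000955 and 1.7e-05). In the authors' FPKM, GSK591 and DMSO overlapped for EIF2AK2 (26.1 to 30.2 and 28.1 to 30.0 FPKM). They also overlapped for EIF2AK3 (6.45 to 8.45 and 8.05 to 8.88 FPKM), but not for EIF2AK1 and EIF2AK4. IMPACT, which restrains EIF2AK4, had 49.4 ± 1.37 CPM in GSK591, 33.5 ± 2.05 CPM in MS023 and 39.3 ± 2.07 CPM in DMSO; it rose by 0.33 ± 0.05 in GSK591, fell by 0.23 ± 0.05 in MS023, and was lower in MS023 than in GSK591 with a difference of -0.56 ± 0.05 (adjusted p = 4.67e-05, 0.00167 and 1.71e-07). GCN1L1, the co-activator of EIF2AK4, rose by 0.23 ± 0.04 in GSK591 (adjusted p = 0.00042), and DNAJC3, an inhibitor of eIF2 kinases, fell by 0.23 ± 0.05 there (adjusted p = 0.000458). PPP1R15B, a subunit of the eIF2 phosphatase, fell in MS023 by 0.08 ± 0.03 (adjusted p = 0.0457). Against GSK591, MS023 was higher for EIF2AK1 (0.50 ± 0.04), EIF2AK3 (0.40 ± 0.05) and DNAJC3 (0.30 ± 0.05) and lower for EIF2AK2 (-0.45 ± 0.04) and EIF2AK4 (-0.30 ± 0.03), with edgeR adjusted p = 9.19e-09, 3.95e-06, 3.82e-05, 5.11e-08 and 1.39e-06.

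In the mTOR and MNK arm, 4 of 15 rose and 6 fell in GSK591, and 5 rose and 4 fell in MS023, at medians of -0.05 and 0.03, with 6 higher and 7 lower in MS023 than in GSK591. RPS6KB1, the S6 kinase that phosphorylates eIF4B, had 89.8, 89.1 and 87.4 CPM in GSK591, 177, 168 and 173 CPM in MS023, and 153, 166 and 162 CPM in DMSO. The GSK591 libraries were far below the rest, with -0.85 ± 0.04 against DMSO and MS023 above GSK591 by 0.96 ± 0.04 (edgeR adjusted p = 1.2e-10 and 1.87e-11); against DMSO it rose in MS023 by 0.11 ± 0.04 (adjusted p = 0.0308). DDIT4, a stress-induced inhibitor of mTOR, had 176, 169 and 176 CPM in GSK591, 161, 155 and 158 CPM in MS023, and 268, 285 and 273 CPM in DMSO, and it fell by 0.67 ± 0.04 in GSK591 and 0.80 ± 0.04 in MS023 (adjusted p = 1.2e-09 and 3.83e-10). PDCD4, which blocks the eIF4A helicase, had 93.6 ± 2.15 CPM in GSK591, 68.4 ± 4.31 CPM in MS023 and 103 ± 4.64 CPM in DMSO, with a fall of 0.13 ± 0.05 in GSK591 and 0.58 ± 0.05 in MS023 (adjusted p = 0.0192 and 9.13e-08). In the authors' FPKM, PDCD4 in GSK591 (43.9 to 48.5 FPKM) overlapped with DMSO (44.1 to 47.9 FPKM), while MS023 lay below both. MKNK2, which phosphorylates eIF4E, fell by 0.37 ± 0.05 in MS023 (adjusted p = 1.89e-05), and MLST8, a subunit of the mTOR complexes, fell by 0.29 ± 0.05 in GSK591 (adjusted p = 0.000224). DEPTOR and AKT1S1, inhibitors within the mTOR complexes, rose in GSK591 by 0.61 ± 0.10 and 0.45 ± 0.05 (adjusted p = 0.000105 and 1.52e-06). In MS023, DEPTOR rose by 0.36 ± 0.10, TSC2, a brake on mTOR, by 0.34 ± 0.05 and RPS6KB2 by 0.25 ± 0.05 (adjusted p = 0.00908, 0.000113 and 0.00157). In GSK591, RPS6KB2, the paralog of RPS6KB1, fell by 0.15 ± 0.06 (adjusted p = 0.0282). Its libraries overlapped there, with 26.2 CPM in GSK591 replicate 1 and 25.9 CPM in DMSO replicate 2. MTOR itself rose by 0.14 ± 0.04 in GSK591 (adjusted p = 0.0106) and did not pass in MS023 (0.03 ± 0.04). Against GSK591, MS023 was also higher for RPS6KB2 (0.40 ± 0.05) and TSC2 (0.39 ± 0.05) and lower for PDCD4 (-0.45 ± 0.05), AKT1S1 (-0.43 ± 0.05) and MKNK2 (-0.30 ± 0.05), with edgeR adjusted p = 1.45e-05, 1.67e-05, 5.74e-07, 2.11e-06 and 7.85e-05.

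Among 19 partners of initiation without an EIF name, 3 rose and 11 fell in GSK591, and 2 rose and 12 fell in MS023, at medians of -0.20 and -0.13, with 5 higher and 8 lower in MS023 than in GSK591. MCTS1, which with DENR recycles ribosomes and re-initiates, had 44.7, 43.5 and 47.0 CPM in GSK591, 30.9, 28.1 and 28.6 CPM in MS023, and 52.2, 59.5 and 58.0 CPM in DMSO. It fell by 0.33 ± 0.05 in GSK591 and 0.95 ± 0.05 in MS023, and DENR (169 ± 4.75 CPM in GSK591, 142 ± 4.47 CPM in MS023 and 168 ± 7.27 CPM in DMSO) fell by 0.24 ± 0.04 in MS023 (edgeR adjusted p = 7.84e-05, 3.04e-09 and 0.000208). PAIP2B and PAIP2, which keep poly(A)-binding protein off its targets, fell in GSK591 by 0.98 ± 0.09 and 0.58 ± 0.05 (adjusted p = 1.5e-07 and 6.35e-08), and PAIP2 also fell in MS023 by 0.13 ± 0.05 (adjusted p = 0.0257). BZW2, a mimic of eIF5, had 80.6 ± 1.74 CPM in GSK591, 73.8 ± 1.91 CPM in MS023 and 110.1 ± 2.79 CPM in DMSO and fell by 0.45 ± 0.03 in GSK591 and 0.58 ± 0.03 in MS023 (adjusted p = 3.2e-08 and 4.46e-09). ABCE1, which splits ribosomes, fell by 0.33 ± 0.05 in MS023 (adjusted p = 2.94e-05). CTIF, the partner of the nuclear cap-binding complex, had 40.1, 40.5 and 37.7 CPM in GSK591, 31.7, 34.6 and 35.5 CPM in MS023, and 23.0, 22.7 and 23.5 CPM in DMSO and rose by 0.77 ± 0.05 in GSK591 and 0.55 ± 0.05 in MS023 (adjusted p = 5.22e-09 and 3.74e-07). PABPC4 rose by 0.24 ± 0.05 in GSK591, and ABCF1, which binds eIF2, rose by 0.09 ± 0.03 in GSK591 and 0.13 ± 0.03 in MS023 (adjusted p = 0.000513, 0.0162 and 0.00314). DOHH, the enzyme of the last step of hypusine formation on EIF5A, had 7.71 ± 0.771 CPM in GSK591, 10.2 ± 0.433 CPM in MS023 and 10.2 ± 0.632 CPM in DMSO and fell by 0.41 ± 0.08 in GSK591 (adjusted p = 0.000495), while DHPS, the enzyme before it, did not pass (-0.03 ± 0.05, adjusted p = 0.644). DHPS was named for its tie to EIF5A after its values were seen. Against GSK591, MS023 was higher for PAIP2B (1.15 ± 0.08), PAIP2 (0.45 ± 0.05) and DOHH (0.41 ± 0.08) and lower for MCTS1 (-0.62 ± 0.05), DENR (-0.25 ± 0.04) and ABCE1 (-0.24 ± 0.05), with edgeR adjusted p = 1.45e-08, 8.42e-07, 0.000379, 1.13e-07, 9.63e-05 and 0.000332.

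The factors of elongation and termination served as neighbours in the same process. Of the 14 listed, EEF1G, a subunit of the factor that recharges EEF1A1, was not tested. The count table holds 1 read of it in GSK591 and 0 in MS023 and in DMSO, although the authors' FPKM was 562 to 563 in GSK591, 537 to 622 in MS023 and 602 to 721 in DMSO. A low count in this table is thus not always a low level, and 1.93% of the 12595 genes at 1 FPKM or more had less than 0.1 CPM, here per total count, for each FPKM. The 44 initiation factors at 1 FPKM or more had at least 0.809 CPM for each FPKM (EIF3K), so none of these was lost from the counts in this way. Of 13 tested, 3 rose and 5 fell in GSK591, and 3 rose and 6 fell in MS023, at medians of -0.05 and 0.01, with 6 higher and 4 lower in MS023 than in GSK591. EEF1A2, the elongation factor variant of muscle and nerve, had 124, 118 and 113 CPM in GSK591, 98.3, 115 and 115 CPM in MS023, and 52.2, 45.7 and 44.8 CPM in DMSO, and all inhibitor libraries were above DMSO. It rose by 1.32 ± 0.07 in GSK591 and 1.20 ± 0.07 in MS023 (edgeR adjusted p = 3.41e-10 and 1.91e-09), while EEF1A1, the common form, was not called (5482 ± 146 CPM in GSK591, 5465 ± 47.8 CPM in MS023 and 5359 ± 167 CPM in DMSO). EEF2K, the kinase that slows elongation, had 48.2, 46.0 and 45.6 CPM in GSK591, 87.4, 87.9 and 84.3 CPM in MS023, and 90.0, 82.3 and 84.9 CPM in DMSO and fell by 0.88 ± 0.04 in GSK591 (adjusted p = 1.67e-10), with MS023 above GSK591 by 0.89 ± 0.04 (adjusted p = 7.71e-11). Its target EEF2 rose by 0.09 ± 0.02 in GSK591 and GSPT2, a release factor, by 0.16 ± 0.05 in GSK591 and 0.13 ± 0.05 in MS023 (adjusted p = 0.00205, 0.00894 and 0.0285). For EEF2 the authors' FPKM spread widely, with 663 to 740 FPKM in GSK591 inside the 572 to 1351 FPKM of DMSO. GSPT1, the main release factor GTPase, rose by 0.20 ± 0.03 in MS023 by counts (adjusted p = 0.000237). In the authors' FPKM all 3 groups of GSPT1 overlapped. They spanned 79.7 to 84.4 FPKM in GSK591, 79.2 to 88.5 FPKM in MS023 and 82.9 to 87.4 FPKM in DMSO. EEFSEC, the selenocysteine elongation factor, fell by 0.56 ± 0.06 in GSK591 and 0.40 ± 0.06 in MS023, TSFM, of mitochondria, fell by 0.48 ± 0.06 in GSK591, and EEF1B2 and ETF1 fell by 0.39 ± 0.05 and 0.20 ± 0.04 in MS023 (adjusted p = 2.12e-06, 9.55e-05, 8.76e-06, 7.08e-06 and 0.000469). Against GSK591, MS023 was also higher for TSFM (0.51 ± 0.06) and GSPT1 (0.25 ± 0.03) and lower for EEF1B2 (-0.32 ± 0.05), ETF1 (-0.22 ± 0.04) and EEF1D (-0.18 ± 0.03), with edgeR adjusted p = 3.4e-06, 1.41e-05, 2.29e-05, 9.61e-05 and 0.000215.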

How the data were processed

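RNA of 9 A549 libraries, 3 for each group, was depleted of ribosomal RNA and sequenced as paired ends, per the labels' protocols. The authors deposited a table of raw read counts per gene and, for each library, a table of FPKM (fragments corrected for transcript length and library depth). Per the submitters' processing notes the tools were cutadapt, STAR, featureCounts and DESeq2 on hg19, while their versions, the annotation and the strand setting are not stated, so counts of overlapping genes are uncertain. Symbols and hg19 positions came from the FPKM tables. Sequences came from RefSeq promoters (GRCh38.p14) and a GENCODE annotation of GRCh38, matched by identifier or symbol.

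Genes entered edgeR 4.0.16 (R 4.3.3) after filterByExpr (minimum count 10, minimum total 15) and TMM scaling, in 1 quasi-likelihood fit with group as its term over 9 libraries. P-values are two-sided and adjusted over 18292 genes at 0.05, and standard errors are the size of a change over the square root of F. The scripts were tested on simulated data. Reads are not independent molecules, and amplification enters the errors only through its variation among libraries. The deposited FPKM served for levels per length and, with limma 3.58.1 on log2(FPKM + 1), for alternatives, as did DESeq2 1.42.0, RLE or total-count scaling, other filters, a threshold of 0.01, a replicate block, fits to the 6 libraries compared and each library left out. Leaving out DMSO replicate 1 and GSK591 replicate 3 was chosen after seeing the data. Shared sequence was measured as the share of a gene's 100-base stretches found in transcripts of other genes.

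The members, gene lists and tests were chosen with earlier results of these data known. In each comparison the 8 largest increases and decreases, all paralogs, members called with opposite signs and up to 3 genes each way per pathway list are named; other members are given by factor. PECAM1, planned as an endothelial marker, was not among the symbols used here. Replicate numbers did not pair the libraries, and no 2 libraries of a group agreed within sampling noise.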

Additional observations from a re-analysis of the deposited data

How the results depend on the processing

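Of the 83 member calls over the 3 comparisons, 18 of 32 in GSK591 against DMSO, 13 of 23 in MS023 against DMSO and 20 of 28 in MS023 against GSK591 passed in every alternative run for them. The sign turned for EIF3L alone, in GSK591 against DMSO with limma on the authors' FPKM, at -0.070 with a pseudocount of 1, -0.070 with 0.1 and -0.070 without a filter (adjusted p = 0.668, 0.668 and 0.784). In FPKM, 2 members were higher in GSK591 than in DMSO under each of these 3 settings, in place of 10. Called genes in MS023 against DMSO numbered 5625, 5623 and 5440 there, in place of 9327, and without a filter 0 members were higher and 13 lower in MS023, in place of 1 and 22. Scaled by total counts, 2 members were higher in MS023 than in DMSO. The cause of these shifts was not tested.

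With each library left out in turn, 8 to 11 members were higher and 20 to 22 lower in GSK591 than in DMSO, 1 higher and 18 to 27 lower in MS023 than in DMSO, and 11 to 14 higher and 14 to 19 lower in MS023 than in GSK591. With the replicate number as a block, 11145, 8855 and 11642 genes were called in GSK591 against DMSO, MS023 against DMSO and MS023 against GSK591. Under the block, EIF2B3, EIF3H, EIF3J and EIF4G3 lost their calls in MS023 against DMSO, which left 18 members lower there, and no other member call was lost. Same-numbered libraries correlated at -0.43 to 0.26 in their deviations from the group means, with 2 of 9 pairs over 0.1, so the numbers were not read as pairs. Not every library correlated best with its own number. Depth limits EIF2S3L, EIF3CL and EIF5AL1 most, whose levels lay under 4 CPM.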
